A study of Mus musculus with 6 samples.

Results

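The 32 genes described here act in pigment cells. They were taken in 3 groups: 14 melanosome genes (3 melanin synthesis enzymes, 7 genes of melanosome structure and ion transport, 4 of melanosome biogenesis and transport), 13 genes of the visual cycle and of other pigment epithelium functions, and 5 transcription factor and melanocyte lineage genes. Each gene was read on the brightest of the array probe sets that the platform annotation maps to it alone, a probe set being a group of short oligonucleotides that gives 1 signal. Of the 32 genes 31 had such a probe set, out of 18193 genes on the array that had one, and Slc24a5 had none.

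The series asked what happens to the embryonic retina of mice that lack Onecut1, a transcription factor gene. Total RNA from isolated retinas was hybridised to Affymetrix arrays, with 3 wildtype (WT) and 3 knockout (OC1-KO) embryos and 1 array per embryo. The labels give the stage as E14, the series title as E14.5. Both genotypes were littermates on a mixed background, from R1 ES cells injected into Swiss mice and later bred with C57Bl/6, and no agent or other allele is named for either. The knockout is not restricted to the retina. The genotypes rest on the labels, because no source used here places the Onecut1 probe sets relative to the deleted sequence, and their signals therefore check nothing (on the brighter one, log2 9.01 ± 0.25 for WT against 9.0 ± 0.68 for OC1-KO, SD, n = 3 each).

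The retinal pigment epithelium is a single sheet of pigmented cells that lies against the neural retina. It makes melanin in melanosomes, organelles related to lysosomes, and it recycles the retinoid of the visual pigments through the visual cycle. In the mouse embryo the melanin enzymes come on in the optic cup well before birth under the transcription factor MITF, while much of the visual cycle machinery accumulates later. The sheet is often removed when a neural retina is isolated. Melanocytes of neural crest origin, in the choroid and iris, use the same melanosome genes.

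All values are log2 signals, so that a difference of 1 is a factor of 2, and the signals of different probe sets were not ranked against each other. The labelled tissue was borne out by neural retina markers (6 of 8 measured), whose mean lay between 12.49 and 12.82 on all arrays. The embryos numbered 3 in both genotypes stood apart from the rest. The mean of 11 lens genes was 9.85 in WT 3 and 8.95 in OC1-KO 3 against 3.85 to 5.13 on the other 4 arrays, and the mean of 6 red blood cell genes was 8.57 and 8.76 against 3.08 to 4.84. Median array signals lay between 85.0 and 104, the lowest on OC1-KO 3.

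The promoters of 25 of the 32 genes were held in the RefSeq table used (assembly GRCm38.p6), as windows of 250 bases before to 50 after a transcription start. They were searched on both strands for the core of the M-box, TCATGTG, which reads CACATGA on the other strand, a form of the E-box that MITF is known to bind, and for the palindromic E-box CACGTG, and neither contains the other. The M-box core was in the windows of 4 of 9 melanosome genes (Tyr, Tyrp1, Dct and Slc24a5), 1 of 4 factor and lineage genes (Trpm1) and 1 of 12 visual cycle and other pigment epithelium genes (Kcnj13). Of all genes so listed, 4.31% had it. The M-box core was chosen for its known tie to MITF and pigment genes. These shares therefore describe the windows and are no test of enrichment. CACGTG was in windows of Mlph, Rab27a and Trpm1, against 8.09% of all genes. The 3 melanin enzymes are shown because their signals were higher in the embryos numbered 3, Trpm1 because it is a known MITF target read on 4 probe sets, and Kcnj13 as the only visual cycle or other pigment epithelium gene with a match. Each is written 5′ to 3′ along the gene's strand with the M-box core in capitals, and all coordinates are of that assembly.
Tyr promoter, chr7:87493463-87493762, minus strand: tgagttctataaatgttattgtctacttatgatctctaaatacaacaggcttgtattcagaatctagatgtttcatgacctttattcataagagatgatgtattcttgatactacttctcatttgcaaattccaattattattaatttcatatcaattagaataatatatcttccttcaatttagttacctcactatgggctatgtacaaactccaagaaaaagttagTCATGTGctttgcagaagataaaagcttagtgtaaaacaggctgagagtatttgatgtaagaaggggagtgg
Tyrp1 promoter, chr4:80833963-80834262, plus strand: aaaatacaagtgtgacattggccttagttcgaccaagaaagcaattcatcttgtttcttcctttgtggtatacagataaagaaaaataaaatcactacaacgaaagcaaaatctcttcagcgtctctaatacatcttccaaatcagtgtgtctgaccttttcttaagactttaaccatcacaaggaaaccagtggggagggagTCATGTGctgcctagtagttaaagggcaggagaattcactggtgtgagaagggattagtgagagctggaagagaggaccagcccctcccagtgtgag
Dct promoter, chr14:118052197-118052496, minus strand: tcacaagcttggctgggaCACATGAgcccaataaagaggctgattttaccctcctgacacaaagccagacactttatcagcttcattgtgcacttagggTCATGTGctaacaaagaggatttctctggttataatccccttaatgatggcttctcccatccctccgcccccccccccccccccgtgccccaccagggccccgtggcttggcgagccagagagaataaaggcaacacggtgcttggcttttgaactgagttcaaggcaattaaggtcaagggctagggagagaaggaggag
Trpm1 promoter, chr7:64153585-64153884, plus strand: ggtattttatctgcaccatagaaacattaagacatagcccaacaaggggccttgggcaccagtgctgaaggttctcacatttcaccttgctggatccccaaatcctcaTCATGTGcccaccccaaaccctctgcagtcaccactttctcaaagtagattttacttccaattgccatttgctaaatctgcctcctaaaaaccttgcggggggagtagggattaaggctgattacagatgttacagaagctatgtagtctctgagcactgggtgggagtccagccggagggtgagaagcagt
Kcnj13 promoter, chr1:87394680-87394979, minus strand: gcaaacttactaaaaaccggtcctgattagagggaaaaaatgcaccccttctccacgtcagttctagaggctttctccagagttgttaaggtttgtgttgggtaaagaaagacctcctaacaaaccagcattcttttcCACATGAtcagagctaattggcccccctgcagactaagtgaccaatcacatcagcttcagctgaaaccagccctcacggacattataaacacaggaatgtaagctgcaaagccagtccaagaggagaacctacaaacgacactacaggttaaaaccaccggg
Counted from the start site, the core began at position -22 in Tyr, -47 in Tyrp1, -232 and -151 in Dct, -142 in Trpm1 and -112 in Kcnj13. A match describes these letters and is not evidence that a factor binds there.

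No pigment gene passed the test for a difference between OC1-KO and WT. None passed the test for embryo number after adjustment either, and 4 of the 13 measured melanosome genes were over the level at which probe sets were tested. As a description, all 13 measured melanosome genes were higher in the embryos numbered 3 than the mean of numbers 1 and 2. The difference was averaged over the genotypes and had a median of 1.34. Here and below, number 3 is compared with that mean unless an order of arrays is given. Gpr143 was higher in number 1 (4.02) than in number 3 (3.84), and Mreg in number 2 (8.31) than in number 3 (7.99). The 13 visual cycle and other pigment epithelium genes had a median of 0.25, with 9 higher and 4 lower. The median over all genes was -0.03.

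**Figure D1:**
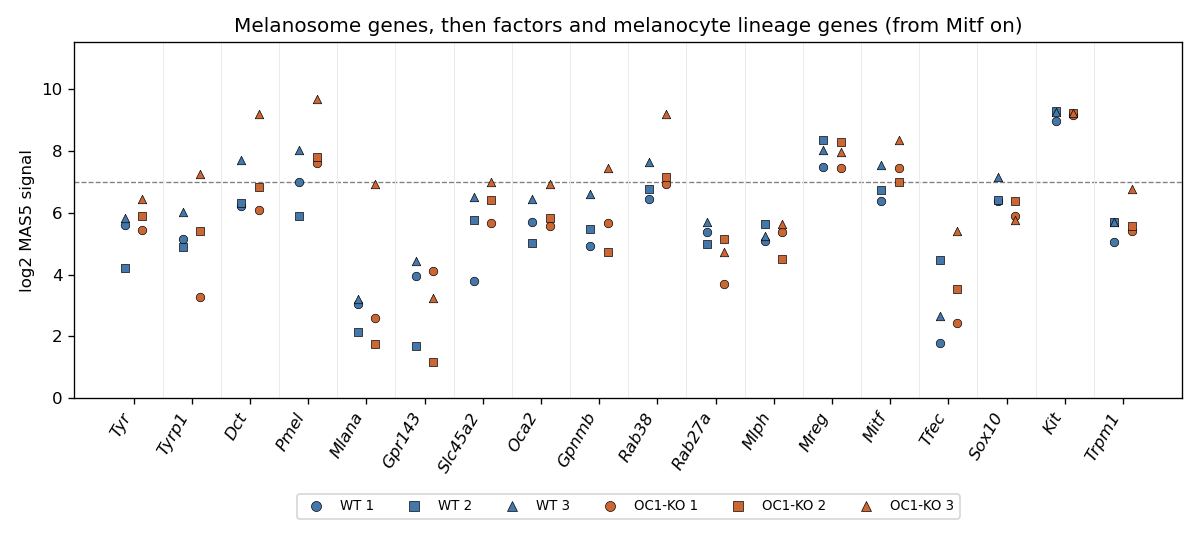
Log2 MAS5 signal (vertical axis) of the melanosome genes and of the factor and lineage genes (horizontal axis), with 1 point per array, coloured by genotype and shaped by embryo number, and a dashed line at the tested level of 7. OC1-KO 3 gave the highest point for 10 of 13 melanosome genes and for 3 of 5 factor and lineage genes.

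Among the melanin enzymes, Dct (dopachrome tautomerase, chr14:118012790-118052246) read 6.21, 6.31 and 7.72 (WT 1 to 3) against 6.09, 6.84 and 9.18 (OC1-KO 1 to 3). Both number 3 arrays lay above the other 4, and the genotypes overlapped. Dct averaged 6.74 ± 0.84 for WT against 7.37 ± 1.61 for OC1-KO (SD, n = 3 each), a difference of 0.62 (SE 0.81) that was -0.28 without OC1-KO 3. Number 3 exceeded numbers 1 and 2 by 1.46 in WT and 2.71 in OC1-KO. Tyrp1, which acts next to tyrosinase in eumelanin synthesis, read 5.15, 4.88 and 6.01 (WT 1 to 3) against 3.29, 5.41 and 7.26 (OC1-KO 1 to 3). Its lowest and its highest value were both in OC1-KO retinas, the highest in embryo 3. The other 2 probe sets of Tyrp1 were also highest in OC1-KO 3, with number 3 above numbers 1 and 2 by 1.97 and 3.01. Tyr, tyrosinase, the rate-limiting enzyme of melanin synthesis, read 5.59, 4.22 and 5.83 (WT 1 to 3) against 5.43, 5.90 and 6.46 (OC1-KO 1 to 3). The genotypes overlapped, and embryo 3 was the highest of each. Its other 2 probe sets did not show this, with number 3 differing from numbers 1 and 2 by -0.01 and 0.03. Of the 3 enzymes only Dct reached the level at which probe sets were tested, a mean over 7 in either genotype, and it did so through the OC1-KO mean alone.

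Among the genes of melanosome structure and ion transport, Pmel, which forms the fibrils on which melanin is laid down (chr10:128695888-128720238), read 6.98, 5.90 and 8.03 (WT 1 to 3) against 7.61, 7.80 and 9.68 (OC1-KO 1 to 3). Embryo 3 was the highest of each genotype, and WT 3 was above OC1-KO 1 and 2. Pmel averaged 6.97 ± 1.06 for WT against 8.36 ± 1.14 for OC1-KO (SD, n = 3 each), a difference of 1.40 (SE 0.70) with an unadjusted p of 0.0852 and an adjusted p of 1.00 in limma. The difference lay between 0.74 and 1.93 when 1 array was left out. Mlana, a melanosome membrane protein needed for PMEL processing, read 3.05, 2.14 and 3.20 (WT 1 to 3) against 2.60, 1.77 and 6.92 (OC1-KO 1 to 3). Only OC1-KO 3 stood away from low values. Gpnmb, a glycoprotein related to PMEL that macrophages also make, read 4.93, 5.48 and 6.59 in WT and 5.67, 4.72 and 7.44 in OC1-KO. Both number 3 arrays were above the other 4 on this probe set, while its dimmer probe set gave a difference of -1.57 for number 3 against numbers 1 and 2. Macrophage markers had means of 6.54 to 7.09 over the arrays, and their part in the Gpnmb values was not tested.

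Oca2, a melanosome chloride channel or transporter, read 5.69, 5.01 and 6.43 in WT and 5.56, 5.82 and 6.93 in OC1-KO, with both number 3 arrays on top. Slc45a2, a transporter of the melanosome membrane, read 3.78, 5.78 and 6.51 in WT and 5.65, 6.40 and 6.98 in OC1-KO, and number 3 was the highest of each genotype. On its dimmer probe set number 3 was the lowest of each genotype, with a difference of -1.41 from numbers 1 and 2. Gpr143, a melanosome receptor that sets organelle size, read 3.95, 1.70 and 4.44 in WT and 4.10, 1.17 and 3.24 in OC1-KO. Its lowest values were in the embryos numbered 2, and unlike the other 5 measured genes of its list its highest was WT 3. Number 3 exceeded the mean of numbers 1 and 2 by over 1 for all 6 measured genes of structure and ion transport. So it did for 2 of the 3 enzymes and for 1 of the 4 biogenesis and transport genes, against 5.69% of all genes. That share is over genes of all levels, while only 4 of the 13 measured melanosome genes were over the tested level. With an offset of 32 the count over all 13 was 6 in place of 9, and no share of all genes is given for that setting. These counts are on the brightest probe sets.

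Melanosome biogenesis and transport genes were less uniform. Rab38, a small GTPase that delivers enzymes to the forming melanosome (chr7:88430273-88491572), read 6.46, 6.75 and 7.64 (WT 1 to 3) against 6.93, 7.14 and 9.18 (OC1-KO 1 to 3). Both number 3 arrays were above the other 4, and OC1-KO 3 was the highest. Rab38 averaged 6.95 ± 0.62 for WT against 7.75 ± 1.25 for OC1-KO (SD, n = 3 each), a difference of 0.80 (SE 0.62). Its second probe set gave the same difference of 0.80 and exceeded numbers 1 and 2 in number 3 by 2.58. Rab27a, the GTPase that ties melanosomes to myosin Va, read 5.38, 4.98 and 5.70 in WT and 3.70, 5.16 and 4.73 in OC1-KO on its brightest probe set, a difference of -0.82 (SE 0.44). The other 3 probe sets of Rab27a went the opposite way, with differences of 0.30, 2.55 and 0.92, so the direction rests on the probe set. Rab27a also lies 1.82 Mb from Onecut1 on chromosome 9, where strain sequence linked to the targeted allele and genotype cannot be told apart. Mlph, melanophilin, the link between RAB27A and myosin Va, read 5.08, 5.63 and 5.24 in WT and 5.39, 4.49 and 5.65 in OC1-KO with no order by genotype or number. Mreg, melanoregulin, which acts in melanosome transfer and transport, read 7.47, 8.35 and 8.02 in WT and 7.46, 8.27 and 7.97 in OC1-KO. Here embryo 2 was the highest of each genotype, and OC1-KO minus WT was -0.01, -0.07 and -0.05 in the pairs of embryos 1 to 3.

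**Figure D2:**
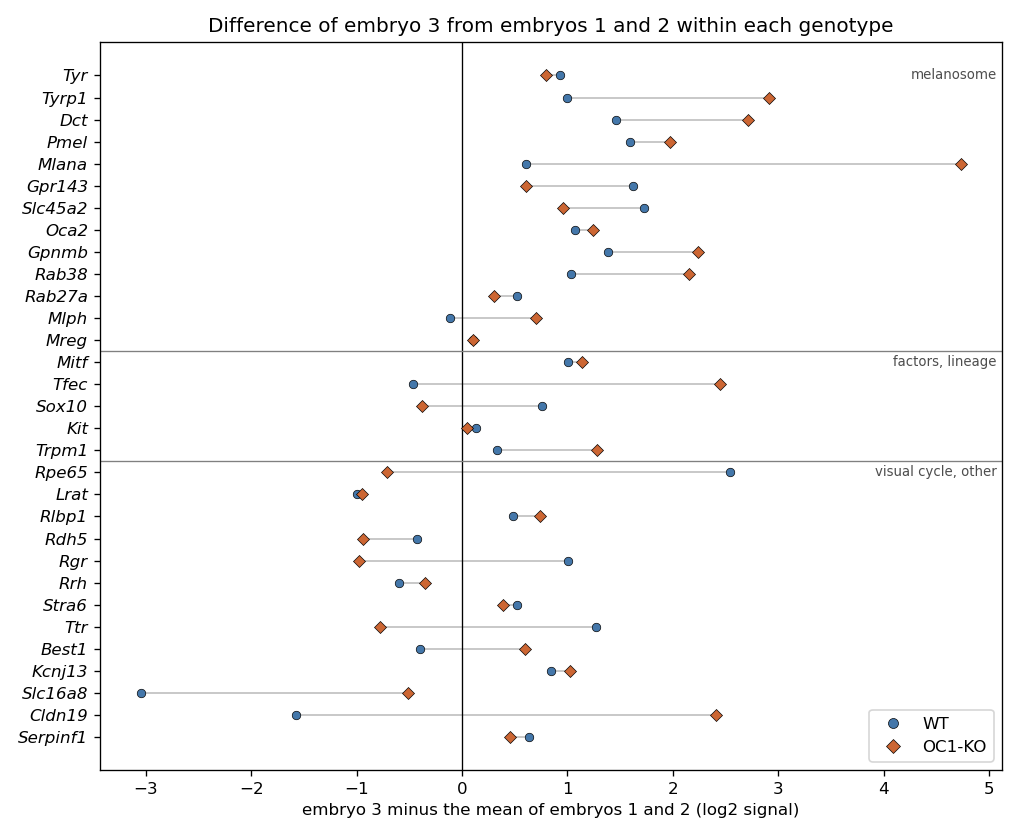
Difference between the embryo numbered 3 and the mean of embryos 1 and 2 (log2, horizontal axis) for each measured gene, shown for each genotype. On these brightest probe sets Dct, Pmel, Rab38 and Oca2 lie above 1 in both genotypes, while Lrat and Slc16a8 lie below 0 in both.

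Of the factor and lineage genes, Mitf, the master regulator of pigment cell genes (chr6:97807002-98021360), read 6.36, 6.72 and 7.55 (WT 1 to 3) against 7.44, 6.99 and 8.35 (OC1-KO 1 to 3). Embryo 3 was the highest of each genotype, and the groups overlapped. Mitf averaged 6.88 ± 0.61 for WT against 7.59 ± 0.69 for OC1-KO (SD, n = 3 each), a difference of 0.72 (SE 0.42) that ranged from 0.34 to 1.05 when 1 array was left out. On its dimmer probe set, under the tested level, Mitf read 0.86, 4.06 and 4.87 in WT and 4.32, 1.32 and 4.89 in OC1-KO. The difference there was 0.25 (SE 1.40). With the mean of its probe sets Mitf was under the tested level, with a difference of 0.48. Tfec, a relative of MITF found in the pigment epithelium and in macrophages, read 1.80, 4.46 and 2.67 in WT and 2.42, 3.53 and 5.42 in OC1-KO, with no order by genotype. Trpm1, a cation channel gene of melanocytes and later of ON bipolar cells, read 5.05, 5.70 and 5.71 in WT and 5.40, 5.57 and 6.77 in OC1-KO, with OC1-KO 3 the highest. Its other 3 probe sets were highest in OC1-KO 3 too, and number 3 exceeded numbers 1 and 2 by 3.75, 2.84 and 2.86.

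Sox10 and Kit are known from the neural crest route to melanocytes. Sox10, a neural crest factor, read 6.38, 6.42 and 7.16 in WT and 5.89, 6.38 and 5.75 in OC1-KO. The highest value was WT 3 and the lowest OC1-KO 3, opposite to the melanosome genes within the pair of number 3, and the difference of -0.65 (SE 0.31) had an unadjusted p of 0.0877 in limma without the filter. Kit, a receptor that is also present on other cells of the retina, read 8.97, 9.28 and 9.26 in WT and 9.15, 9.21 and 9.23 in OC1-KO, a difference of 0.02 (SE 0.15). Of the neural crest and Schwann cell markers, 4 of 6 were measured, none was over the level tested, and their mean lay between 3.96 and 5.60. All 4 were higher in number 3 than in numbers 1 and 2, with a median of 0.56, and the mean was highest in OC1-KO 3 and, of the WT arrays, in WT 3 (5.13). Sox10 is itself one of these 4 markers. Its second probe set was higher in number 3 by 1.46, with 5.90 in WT 3. In OC1-KO 3 that probe set read 3.95, against 4.18 and 3.30 in OC1-KO 1 and 2. The third probe set of Sox10 gave -0.64 by number. The part of these markers in the melanosome values was not tested.

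**Figure D3:**
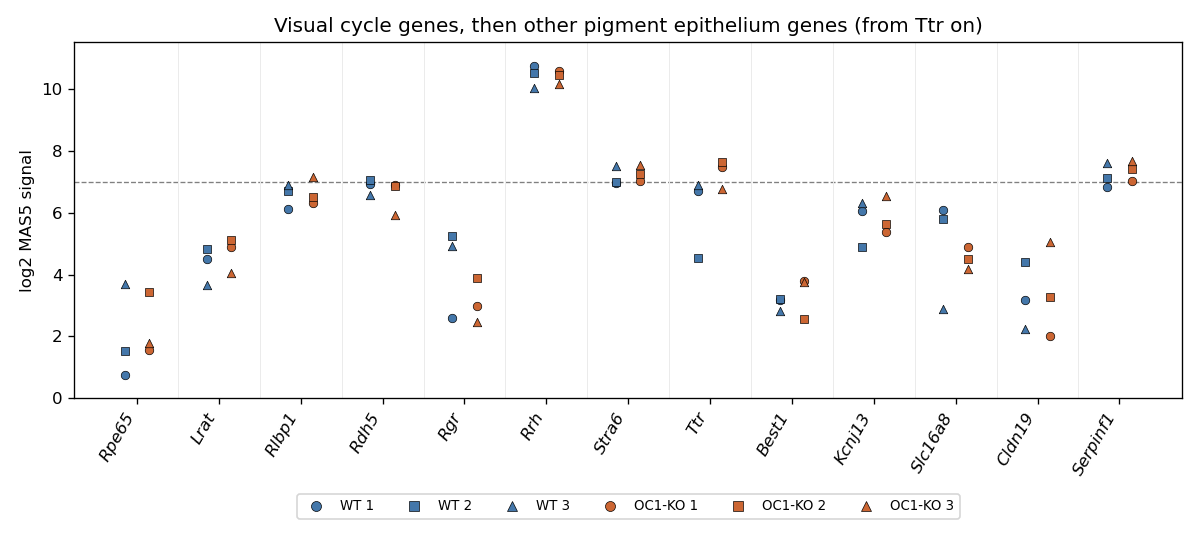
Log2 MAS5 signal (vertical axis) of the visual cycle genes and other pigment epithelium genes (horizontal axis), with 1 point per array, coloured by genotype and shaped by embryo number, and a dashed line at the tested level of 7. OC1-KO 3 gave the highest point for 5 of 13 genes, and the points of most genes mix by genotype.

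The visual cycle genes had no common direction by embryo number, 4 being higher and 3 lower in number 3. Rpe65, the isomerase of the visual cycle, read 0.77, 1.54 and 3.69 in WT and 1.58, 3.45 and 1.80 in OC1-KO, with no order by genotype. Lrat, which esterifies retinol, read 4.50, 4.82 and 3.67 in WT and 4.88, 5.12 and 4.05 in OC1-KO. In both genotypes embryo 3 was the lowest. On its dimmer probe set embryo 3 was the highest of each genotype, with a difference of 0.42 by number. Rlbp1, a retinaldehyde carrier that Müller glia also make, read 6.11, 6.71 and 6.89 in WT and 6.30, 6.51 and 7.14 in OC1-KO, with number 3 the highest of each genotype. Rdh5, the retinol dehydrogenase that remakes the aldehyde, read 6.93, 7.05 and 6.56 in WT and 6.88, 6.85 and 5.92 in OC1-KO, with number 3 the lowest of each genotype. Rgr, an opsin-like isomerase, read 2.60, 5.23 and 4.92 in WT and 2.98, 3.90 and 2.46 in OC1-KO, and its highest arrays were WT 2 and WT 3.

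Rrh (peropsin), an opsin of the pigment epithelium, read 10.75, 10.50 and 10.03 in WT and 10.58, 10.44 and 10.16 in OC1-KO. Its values ran within 0.72 of each other, with number 3 the lowest of each genotype, and OC1-KO differed from WT by -0.03 (SE 0.23). Stra6, the receptor for the retinol carrier, read 6.96, 7.0 and 7.50 in WT and 7.03, 7.25 and 7.53 in OC1-KO. Number 3 was the highest of each genotype, above the mean of numbers 1 and 2 by 0.53 in WT and 0.39 in OC1-KO, and OC1-KO differed from WT by 0.12 (SE 0.22).

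Of the other pigment epithelium genes, Ttr (transthyretin, a carrier of thyroid hormone and of the retinol complex) read 6.70, 4.55 and 6.89 (WT 1 to 3) against 7.46, 7.63 and 6.77 (OC1-KO 1 to 3). WT 2 was far below the other 5 arrays. Ttr averaged 6.05 ± 1.30 for WT against 7.29 ± 0.46 for OC1-KO (SD, n = 3 each), a difference of 1.24 (SE 0.62), and the pairs of embryos 1 to 3 differed by 0.76, 3.08 and -0.12. Serpinf1, which encodes the secreted factor PEDF, read 6.82, 7.11 and 7.61 in WT and 7.02, 7.43 and 7.68 in OC1-KO. Embryo 3 was the highest of each genotype and embryo 1 the lowest, and OC1-KO was above WT in each pair of the same number. Its dimmer probe set, under the tested level, kept the order by number but not that by genotype. There WT 2 read 5.76 against 4.48 in OC1-KO 2, and OC1-KO differed from WT by -0.13 (SE 1.09). Kcnj13, a potassium channel of the apical membrane, read 6.05, 4.90 and 6.32 in WT and 5.39, 5.64 and 6.53 in OC1-KO, with both number 3 arrays above the other 4. Its gene overlaps Gigyf2.

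Slc16a8, a lactate transporter of the basal membrane, read 6.10, 5.80 and 2.90 in WT and 4.89, 4.49 and 4.18 in OC1-KO. Both number 3 arrays were below the other 4, while its dimmer probe set gave a difference of 0.42 by number. Best1, a chloride channel of the basolateral membrane, read 3.19, 3.23 and 2.81 in WT and 3.78, 2.56 and 3.77 in OC1-KO, and Cldn19, a tight junction protein, read 3.19, 4.41 and 2.23 in WT and 2.01, 3.28 and 5.06 in OC1-KO. Neither was ordered by genotype or by number. Ttr is also made in the choroid plexus and the liver, and Serpinf1 by mesenchyme, and their sources were not tested.

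**Figure D4:**
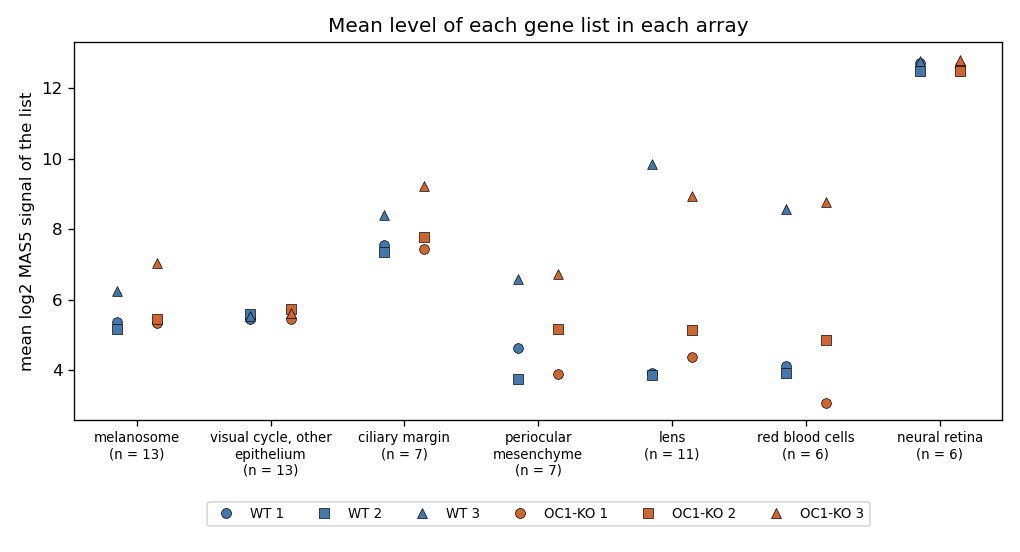
Mean log2 signal over the genes of each list (vertical axis) for each of the 6 arrays, for the melanosome genes, the visual cycle and other pigment epithelium genes and 5 marker lists. The melanosome genes averaged 6.26 in WT 3 and 7.05 in OC1-KO 3 against 5.16 to 5.45 elsewhere, while the visual cycle and other pigment epithelium mean stayed between 5.44 and 5.73.

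Set side by side, the 13 melanosome genes averaged 5.36, 5.16 and 6.26 (WT 1 to 3) against 5.34, 5.45 and 7.05 (OC1-KO 1 to 3), and the 13 visual cycle and other pigment epithelium genes averaged 5.44, 5.60 and 5.54 against 5.44, 5.73 and 5.62. The difference between the means, melanosome minus the other, was -0.08, -0.44 and 0.72 for WT 1 to 3 against -0.10, -0.28 and 1.43 for OC1-KO 1 to 3. It was above 0 only in the 2 embryos numbered 3, and it was larger in OC1-KO 3. The visual cycle genes alone had a median difference by number of 0.01, and the other pigment epithelium genes one of 0.33.

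Both number 3 arrays were above the other 4 for 8 of 13 melanosome genes and 4 of 13 visual cycle and other pigment epithelium genes, against 13.1% of all genes. A further 4 of those 13 epithelium genes had both number 3 arrays below the other 4, against 16.4% of all genes. OC1-KO 3 was the highest array for 10 of 13 melanosome genes and 5 of 13 epithelium genes, against 16.6% of all genes. Within WT alone 12 of 13 melanosome genes were higher in number 3, and within OC1-KO alone 13 of 13. With the mean of a gene's probe sets in place of the brightest, these counts were 9 of 13 in WT and 13 of 13 in OC1-KO, and the count averaged over the genotypes was 12 in place of 13. That count was 12 or 13 without any 1 array.

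The embryo number F test, limma's test of the number term in a fit of genotype and number, was run on the 10 of 31 genes over the tested level, which 57.9% of all genes passed. Of these 5 (Dct, Pmel, Rab38, Mitf and Ttr) were over it through the OC1-KO mean alone. At an unadjusted p under 0.05 it called 8 of the 10, while it called 31.9% of all probe sets tested. Dct was under the tested level when OC1-KO 3 was left out. The filter thus favoured genes with a high OC1-KO array, and the count of 8 shows nothing particular to the members. No member passed after Benjamini-Hochberg adjustment, where 5.32% of all probe sets tested did. Adjusted values were 0.0510 for Dct, 0.0511 for Pmel, 0.0514 for Mreg, 0.0583 for Rab38, 0.0655 for Mitf, 0.0742 for Serpinf1, 0.116 for Rrh and 0.120 for Stra6. Array centring moved several of these across the threshold: with median centring 5 passed (Dct, Pmel, Rab38, Mreg and Mitf) and with quantile normalization 1 (Mreg). The share of all probe sets passing under these settings is not given, so these counts show nothing particular to the members. The calls by number, of members and of other genes, rest on all 6 arrays: of the probe sets tested 1111 passed, while leaving out WT 1, WT 2 or WT 3 gave 1544, 9 and 3, and leaving out OC1-KO 1, 2 or 3 gave 0, 7 and 6.

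Between genotypes, no member and no other probe set passed after adjustment in limma. Without adjustment, limma called 0 of 10 members (1.01% of all probe sets tested) and the methods' t-test 0 of 10 (1.51%). With the embryo number as a block, limma called 3 of 10 without adjustment, Pmel, Rab38 and Mitf, where it called 4.37% of all probe sets tested. All 3 were over the tested level through the OC1-KO mean alone, so a higher value in OC1-KO was favoured by the filter and the count supports no direction. Pmel then had an unadjusted p of 0.00258 and an adjusted p of 0.999, and the pairs of embryos 1 to 3 differed by 0.64, 1.90 and 1.65. Rab38 had an unadjusted p of 0.0228 with pairs at 0.47, 0.39 and 1.54, and Mitf 0.00972 with pairs at 1.08, 0.27 and 0.80. The block called 1.57% of all probe sets tested as higher in OC1-KO. On their brightest probe sets all 3 genes were higher in OC1-KO in every pair, as were 11.1% of all genes. On the dimmer probe set of Mitf, OC1-KO was lower in the pair of embryos 2.

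**Figure D5:**
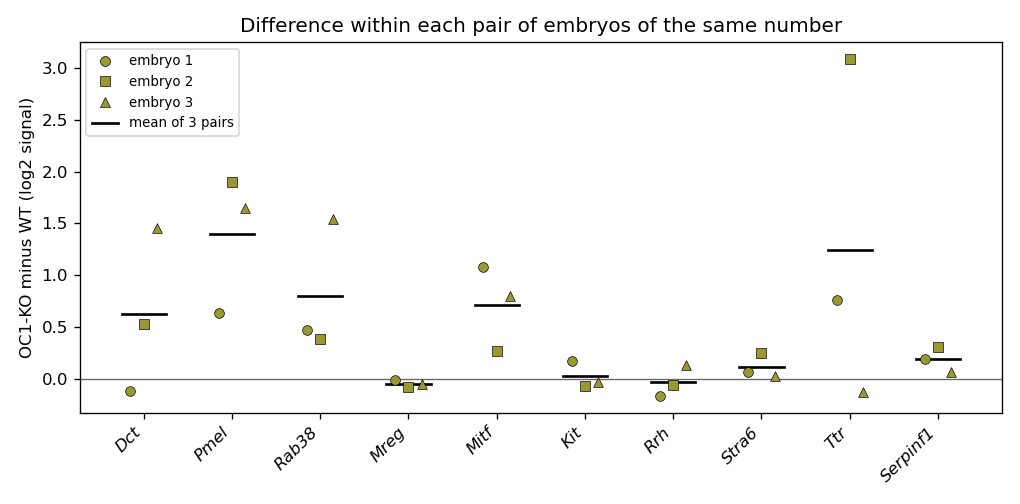
Difference between OC1-KO and WT (log2, vertical axis) in each pair of embryos with the same number, for the 10 genes over the tested level (horizontal axis), with a bar at the mean of the 3 pairs. Pmel, Rab38 and Mitf lie above 0 in all 3 pairs, while Dct lies below 0 in the first pair and above it in the others.

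No member had all OC1-KO arrays above or below all WT arrays, where 2.56% and 2.91% of all genes did. On average 21 of 31 members were higher in OC1-KO and 10 lower, with 48.9% of all genes higher. Of the melanosome genes, 8 averaged more in OC1-KO and 5 less, with a median of 0.39, and the same counts for the visual cycle and other pigment epithelium genes were 9 and 4, with a median of 0.12. In 3 of 3 pairs 7 members were higher. Without OC1-KO 3 the melanosome median was -0.28, with 4 of 13 higher, and without OC1-KO 1 it was 0.97. In these bulk retinas, a difference in the number of pigment cells and one in the RNA of each cannot be told apart.

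Other genes known from pigment cells were read from wider lists, whose difference from the melanosome genes was not tested. Of 22 further genes of lysosome-related organelles 21 were measured, 9 higher and 12 lower in OC1-KO, with a median difference by number of -0.12. Ostm1, a lysosomal membrane protein gene, was the only one of 16 tested that changed with embryo number, and in number 3 it fell by 0.79 (adjusted p 0.0469 in limma). Mfsd12, a melanosome and lysosome cysteine transporter gene, was 0.67 higher in number 3 and did not pass (adjusted p 0.0878). None of the 16 tested differed by genotype after adjustment, Ap3b1 being the one of these with the lowest p, at a difference of 0.17 (SE 0.15). The 7 measured of 8 pigmentation signalling genes had a median of -0.04 by number, and none of the 4 tested passed either test, Kitl, the KIT ligand gene, having the lowest p by genotype at a difference of 0.29 (SE 0.32). Of 20 further pigment epithelium factors and adhesion genes 18 were measured and 12 tested. In number 3, 13 of 18 were higher, 4 of them by over 1, with a median of 0.23 by number. After adjustment 2 changed with number in limma's F test (adjusted p 0.0399 each). Otx1, a homeobox factor, was higher in number 3 by 1.41. Crim1, a membrane protein gene, was lowest in number 2 (7.19), against 8.64 in number 1 and 8.59 in number 3. As given above, few calls by number held without any 1 array other than WT 1.

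Markers of other tissues also moved with number 3, and their part in the melanosome values was not tested. Of the 11 lens genes 10 were highest in WT 3, and with the genotypes paired by number 3 the median lens difference was -1.0, opposite to the 0.63 of the melanosome genes. Crybb1 and Crybb3, lens crystallins, changed with number after adjustment and were 7.51 and 5.78 higher in number 3. The 7 ciliary margin genes were highest in OC1-KO 3 in 7 of 7 cases, with a mean of 9.24 there, 8.39 in WT 3 and 7.34 to 7.78 elsewhere. Periocular mesenchyme markers averaged 6.59 and 6.74 in number 3 and 3.73 to 5.18 elsewhere, and Col1a2, a collagen gene, changed with number, higher by 1.55. Of the red blood cell markers only Hbb-y, an embryonic globin gene, was over the tested level, and it was 7.33 higher in number 3 (adjusted p 0.0758). Endothelial markers stayed between 5.29 and 5.94.

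Some probe sets carry a limit of annotation. The genes of Pmel, Rdh5, Rgr, Stra6 and Kcnj13 overlap other protein-coding genes in RefSeq, namely Rab5b, Cdk2 and Dgka for Pmel, Bloc1s1 for Rdh5, Lrit1 for Rgr and Ccdc33 for Stra6. Stra6 also lies on chromosome 9, at 16.8 Mb from Onecut1.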

How the data were processed

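Total RNA of 6 isolated embryonic retinas was amplified, biotinylated and hybridised to Affymetrix mouse arrays. The authors deposited MAS5 signal intensity values on a linear scale, with a 2% trimmed mean of 500 on every array, and no detection calls or scanner files were used here. Here the deposited intensities were turned to log2 and 64 control probe sets were left out of 45101. As in the methods, a probe set was tested where either genotype averaged over 7 on the log2 scale, which kept 20888. Of these 18250 had 1 gene symbol, 505 several and 2133 none in the platform annotation. Genotypes were compared with limma 3.58.1 in R 4.3.3 (lmFit, eBayes), in place of the methods' t-test, with Benjamini-Hochberg adjustment over all probe sets tested. The embryo number was tested with limma's F test beside genotype. The rest was done in Python 3.11.15 with pandas 2.3.3 (figures, matplotlib 3.10.9), and the fit was tested on simulated data. The number of arrays limits the precision. In the genotype test p-values are set against the spread between embryos within a genotype. In the F test and the replicate block they are set against what genotype and number leave over, with 1 embryo per genotype and number.

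Embryo numbers come from the sample titles, which do not state that a number marks a pair. Deviations from the genotype means correlated between 0.51 and 0.67 across probe sets in same-numbered embryos. Where pairs are given, they were therefore taken from the values and not from the design. The main genotype test held no term for number, and the replicate block was an alternative to it. The pairs were read from the same probe sets that the block and the F test use. In other embryos the correlations lay between -0.66 and -0.04. Centring on the genotype means pushes these below 0, so that range gives no separate support for pairs.

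The members and lists were chosen with earlier results of these data known. Named were all 32 members and, of each wider or marker list, the 3 genes with the lowest p for embryo number and the 1 with the lowest p for genotype among those tested, of which the text gives a part. Alternatives were no filter, quantile normalization, median centring, an offset of 32, the mean of a gene's probe sets, an intensity trend, the replicate block, embryos 1 and 2 alone and leaving out each array. The within-genotype values by number were added after seeing the data.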

Additional observations from a re-analysis of the deposited data

How the results depend on the processing

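No probe set passed for genotype after adjustment under any alternative run, and low signal limited what could be tested, since 21 of the 31 measured members were under the tested level. Without adjustment, 0 of 10 members differed by genotype (1.01% of all probe sets tested), against 3 of 10 with the replicate block (4.37%). In embryos 1 and 2 alone 3 of the 9 members tested did (Pmel, Mitf and Ttr). The count was 0 to 3 without 1 array, and 3 without WT 3. No share of all probe sets is given for these last settings, so their counts show nothing particular to the members. By embryo number, 0 members passed after adjustment, against 1 with quantile normalization, 5 with median centring, 2 with an offset of 32, 4 with an intensity trend, and 0 to 2 without 1 array. Over all probe sets 1111 passed, against 0 without the filter, 4106 with an intensity trend and 0 to 1544 without 1 array. Such a total is not given for the other settings, so their counts of members show nothing particular to these genes. The cause was not tested.

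The median number 3 difference of the melanosome genes, 1.34, was 0.83 with an offset of 32, 1.11 with the mean of probe sets, 1.04 in WT alone, and 1.04 to 1.53 without 1 array. That of the visual cycle and other pigment epithelium genes, 0.25, was -0.35 in OC1-KO alone and -0.35 to 0.48 without 1 array. The genotype median of these genes, 0.12, was -0.010 in embryos 1 and 2 and 0.017 to 0.25 without 1 array, and that of the melanosome genes, 0.39, was -0.28 without OC1-KO 3 and 0.97 without OC1-KO 1. Without 1 array the sign of the genotype difference turned for 13 of the 21 members under the tested level and for 5 of the 10 tested, Kit (-0.075 without WT 1, range to 0.080), Rrh (0.13 without WT 1, 0.01 without WT 2 and 0.09 without OC1-KO 3, range from -0.23), Mreg (0.16 without WT 2 and 0.18 without OC1-KO 1), Dct (-0.28 without OC1-KO 3, range to 1.26) and Stra6 (-0.014 without OC1-KO 3, range to 0.29). The replicate block changed no adjusted call by genotype.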

Other observations

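Of the dimmer probe sets of the members, only 1 of Lrat and 1 of Mlph had genotypes that did not overlap. Both were under the tested level. On the second probe set of Lrat the log2 signal was 3.63, 3.77 and 4.32 in WT and 4.56, 4.81 and 4.92 in OC1-KO, a difference of 0.86 (SE 0.26), while the brighter one overlapped. On the second of Mlph it was 1.29, 4.08 and 2.63 in WT and -0.18, 0.70 and 0.19 in OC1-KO. OC1-KO was thus higher on the Lrat probe set and lower on that of Mlph. These were picked after their values were seen, and no adjusted p is given for them. No share over all dimmer probe sets is given either, so they show nothing particular to the members.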
